A study of Hordeum vulgare with 18 samples.

Results

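A set of 20 genes differed from the control alike in both barley lines with a silenced HvCKX1 gene, at both stages of spike development that were sampled. They were picked from 19857 features with identifiers beginning with MLOC that reached 20 normalized counts in at least 3 of 18 mRNA libraries, among 24211 such features and 26066 features in all. To be picked, a gene had to have all 6 values of the silenced lines outside the 3 control values at each stage, in the same direction at both. In addition, the mean log2(normalized count + 1) of each line had to differ from the control by at least the log2 of 1.5, and the lines from each other by less than 1. The choice gave 14 genes that were higher in the lines and 6 that were lower. Differences from the control therefore chose these genes, and they are given below as a description, with no test.

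The study sequenced whole spikes of the barley (Hordeum vulgare) cultivar Golden Promise in 6 groups of 3 libraries. The 2 transgenic lines are labelled KD-CKX1 5.8 and KD-CKX1 17_10 (line 5.8 and line 17_10 below), and the control is labelled azygous, a word for plants that do not carry the transgene. Spikes were taken at BBCH stages 49, when the first awns are visible, and 59, the end of heading. All groups were grown in field plots and received a nitrogen fertilizer, the herbicide Mustang Forte and the fungicides Acanto and Capalo. The lines are described as independent. Neither the silencing construct and its promoter nor the family of the azygous plants is stated in the labels, and the series description speaks of grains where the sample labels say whole spike. Replicates are called biological in the series description, with no word on whether one holds spikes of 1 plant or of several, so p-values measure the spread between these libraries.

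HvCKX1 encodes a cytokinin oxidase/dehydrogenase. Enzymes of this family cleave the side chain of cytokinins, hormones that promote cell division and shape the number and growth of flowers and grains in cereals. Cytokinins are sensed by histidine kinases in the membrane, and the signal passes through phosphotransfer proteins to response regulators, which act on gene expression in the nucleus. Whether any of the 20 genes belongs to this pathway cannot be said here, because 0 of the 26066 identifiers matched the reference table of barley genes. For the same reason no roles, positions or sequences are given, neither HvCKX1 itself nor any tissue marker could be looked up as a check on the samples.

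Recovered depth ran from 24459652 to 106034579 reads per library, so that 1 read was worth 0.551 to 2.23 normalized counts. In a whole spike, fewer cells of a type and less RNA per cell cannot be told apart. Replicate 2 of line 5.8 at stage 49 stood apart from the other libraries, with a root mean square deviation from its group of 0.86 on the log2 scale over all tested features, against 0.3 to 0.66 in the 17 others. Where leaving it out changed a stage call or dropped a gene from the choice, this is stated below.

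Among the 14 higher genes, 7 were barely detected in the control, with a control mean below 10 normalized counts at both stages. MLOC_54756 had 0 reads in all 6 control libraries. At stage 49 it stood at 975, 339 and 562 normalized counts in replicates 1 to 3 of line 5.8, and at 415, 446 and 462 in line 17_10. At stage 59 it stood at 118, 100.3 and 153 in line 5.8 and at 185, 186 and 102 in line 17_10. All 12 line libraries were thus above all 6 control libraries, and in both lines all 3 values at stage 59 lay below all 3 at stage 49. Against a floor of 3 reads per control library, it was at least 246-fold higher in line 5.8 at stage 49, at least 173-fold higher in line 17_10, and at least 41.3-fold and 52.6-fold higher at stage 59.

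MLOC_26429 was the steadiest of these 7 genes across the line libraries. The control held 1.65, 2.35 and 1.21 normalized counts at stage 49 and 4.61, 1.33 and 13.6 at stage 59. Line 5.8 held 598, 658 and 545 at stage 49 and 685, 607 and 528 at stage 59. Line 17_10 held 445, 583 and 544 at stage 49 and 891, 804 and 652 at stage 59. The lowest of 12 line values (445) and the highest (891) were 2.0-fold apart, while the nearest line and control values within a stage were 189-fold apart at stage 49 and 38.9-fold at stage 59. The control mean rested on 7 reads at stage 49, where line 5.8 was 345-fold higher (95% exact Poisson interval 168 to 859). At stage 59 it rested on 22 reads, and line 17_10 was 120.3-fold higher (95% exact Poisson interval 79.4 to 192).

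MLOC_36262 separated the lines from the control more widely at stage 59 than at stage 49. The control libraries held 1.1, 10.97 and 8.46 normalized counts at stage 49 and 0 reads each at stage 59. The line libraries held 46.9 to 84.8 at stage 49, with the highest in replicate 2 of line 5.8, and 26.4 to 80.4 at stage 59. In the ratio of means, line 17_10 was 9.05-fold higher at stage 49 (95% exact Poisson interval 6.03 to 14.3) and at least 17.2-fold higher at stage 59.

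The 4 other genes that were barely detected in the control stayed low in the lines as well. MLOC_57202 had 1 read in the 3 control libraries together at each stage, and 11.2 to 30.2 normalized counts in the 12 line libraries. Its ratio of means was 95.7 in line 17_10 at stage 49, with a 95% exact Poisson interval of 17.2 to 3779 that shows how little a single read fixes it. MLOC_56741 ran from 12.6 to 40.6 in the lines and from 0 to 9.4 in the control. MLOC_57491 ran from 27.7 to 67.0 in the lines and from 4.53 to 13.3 in the control. MLOC_46025 ran from 11.2 to 33.5 in the lines and from 3.98 to 9.4 in the control. None of these 4 genes showed any overlap between lines and control, even across stages.

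**Figure D1:**
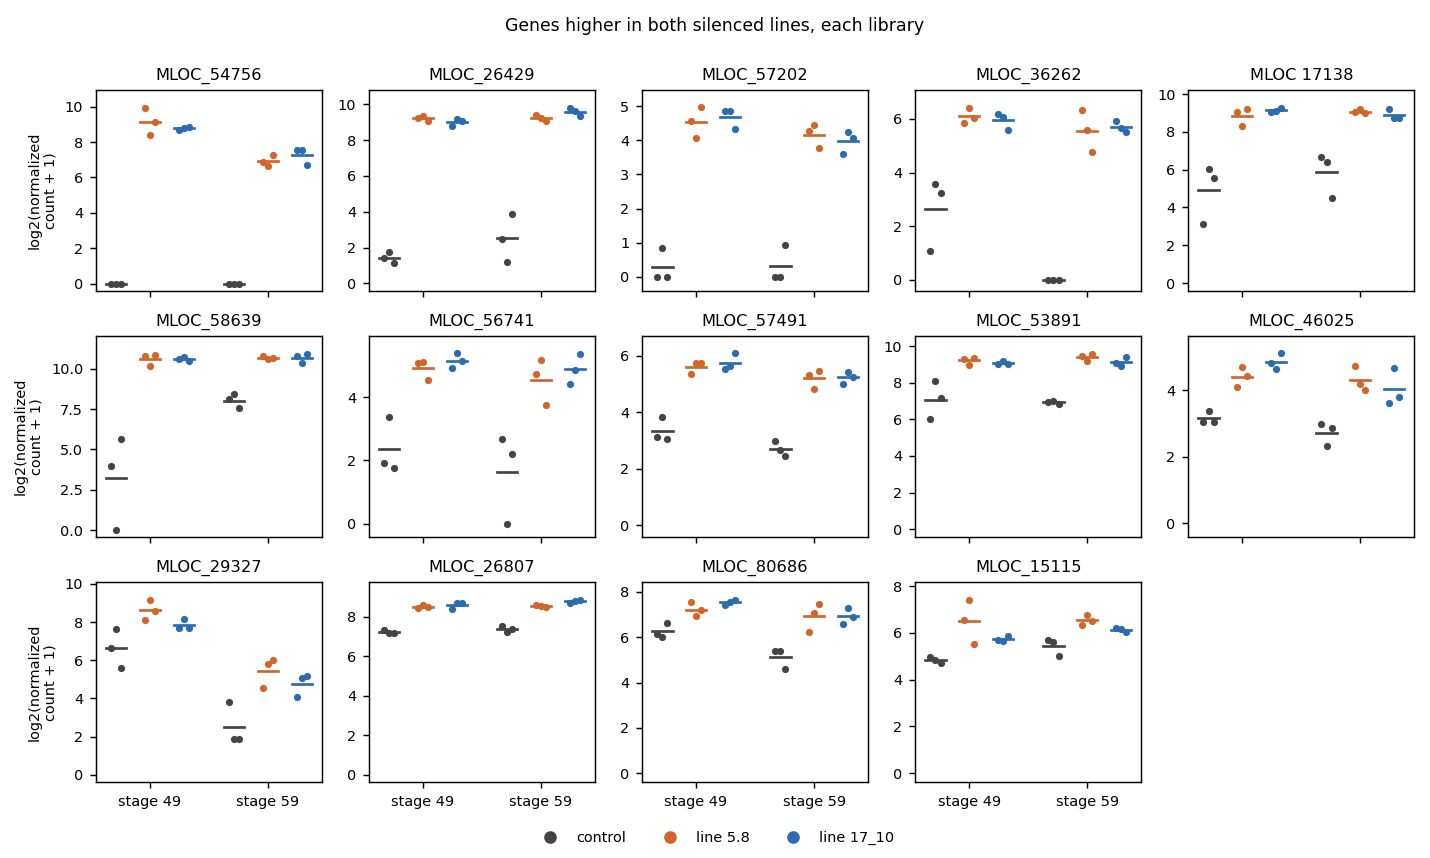
Values of the 14 genes that were higher in both silenced lines, 1 panel per gene, as log2(normalized count + 1) on the vertical axis, with stage on the horizontal axis. Points are single libraries (3 per group) and short lines are group means; MLOC_54756 lies at 0 in all 6 control libraries, and MLOC_58639 is level in the lines while its control values lie higher at stage 59 than at stage 49.

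The 7 remaining higher genes were expressed in the control and more strongly so in the lines. MLOC_58639 was nearly level in the lines, from 1135 to 1926 normalized counts over 12 libraries, a 1.7-fold range, with the lowest value in replicate 2 of line 5.8 at stage 49. Its control values were 14.9, 0 and 49.6 at stage 49 and 274, 338 and 189 at stage 59. The distance between lines and control therefore narrowed, from 72.8-fold to 6.1-fold in the ratio of means for line 5.8 and from 71.9-fold to 6.23-fold for line 17_10. On the log2 scale the line mean lay 7.37 above the control at stage 49 and 2.65 at stage 59, but the first value rests in part on the control library at 0, without which it was 5.76.

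MLOC 17138 and MLOC_53891 also had uneven control values at stage 49. For MLOC 17138 the control libraries held 7.71, 64.3 and 45.9 at stage 49 and 102, 84.9 and 21.7 at stage 59, against 315 to 618 in the 12 line libraries. MLOC_53891 stood at 62.8, 269 and 140.3 in the control at stage 49 and at 122, 127 and 113 at stage 59. Its line values ran from 488 to 761, a 1.56-fold range, and the lowest line value at stage 49 was 1.88-fold the highest control value. In both genes replicate 2 was the highest of the control libraries at stage 49. Over all tested features that library also deviated most within its group. Its root mean square deviation was 0.62 on the log2 scale, against 0.36 for replicate 1 and 0.51 for replicate 3.

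MLOC_26807 had the narrowest line values of the 20 genes. The control held 160.3, 144 and 145 normalized counts at stage 49 and 182, 151 and 166 at stage 59. Line 5.8 held 356, 387 and 360.0 at stage 49 and 395, 370.0 and 362 at stage 59. Line 17_10 held 343, 411 and 415 at stage 49 and 420.0, 453 and 468 at stage 59. The 12 line values spanned a 1.36-fold range and the 6 control values a 1.26-fold range, and the ratio of means lay between 2.26 and 2.69 over both lines and stages.

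In MLOC_29327, MLOC_80686 and MLOC_15115 lines and control were apart within each stage but not across stages. MLOC_29327 had 99.7, 194 and 47.2 normalized counts in the control at stage 49 and 13.1, 2.65 and 2.72 at stage 59. Line 5.8 had 273, 573 and 384 at stage 49 and 22.3, 55.3 and 62.9 at stage 59, and line 17_10 had 207, 290 and 202 followed by 15.6, 32.9 and 34.5. Its lowest line value at stage 49 was only 1.04-fold the highest control value. MLOC_80686 ran from 121 to 201 in the lines and from 62.7 to 97.9 in the control at stage 49, and from 73.7 to 176 and from 23.5 to 41.1 at stage 59. MLOC_15115 ran from 44.9 to 171 in the lines and from 25.4 to 30.3 in the control at stage 49, with the highest value in replicate 2 of line 5.8. At stage 59 it ran from 64.6 to 109 in the lines and from 31.7 to 51.5 in the control.

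The median difference from the control was smaller in the 6 lower genes than in the higher ones, though single genes of the 2 sets overlapped in size. MLOC_78131 was at 1.65, 7.05 and 3.63 normalized counts in the control at stage 49, from 3, 9 and 3 reads. Line 5.8 then had 2 reads in its 3 libraries together and line 17_10 had 1. At this depth the ratio of control to line was 8.79 for line 5.8 (95% exact Poisson interval 2.43 to 72.6) and 14.6 for line 17_10 (2.62 to 577). These intervals take the control mean as exact, although it too rested on few reads, so they are too narrow. At stage 59 the control held 129.98, 153 and 110 normalized counts, line 5.8 held 15.5, 43.2 and 21.4, and line 17_10 held 35.7, 14.4 and 28.7. The control was then 4.89-fold above line 5.8 and 4.97-fold above line 17_10.

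MLOC_25236 and MLOC_66991 kept the lines below the control across stages as well as within them. For MLOC_25236 the control held 54.0, 63.5 and 97.9 normalized counts at stage 49 and 62.3, 49.1 and 55.2 at stage 59. Line 5.8 held 28.6, 13.3 and 33.7 at stage 49 and 12.8, 15.6 and 7.55 at stage 59, and line 17_10 held 34.7, 17.7 and 21.0 followed by 33.5, 24.0 and 14.4. MLOC_66991 stood at 119.6, 88.5 and 91.9 in the control at stage 49 and at 91.5, 127 and 153 at stage 59, against 8.84 to 63.4 in the 12 line libraries. Its lowest value came from replicate 2 of line 5.8 at stage 49 (8.84), where replicates 1 and 3 held 38.6 and 32.3. In these 2 genes the lines came close to the limit of 1, since line 17_10 lay 0.89 above line 5.8 at stage 49 in MLOC_66991 and 0.92 above it at stage 59 in MLOC_25236 on the log2 scale.

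Differences were smallest in MLOC_13234, MLOC_54160 and MLOC_38258. In MLOC_13234 the control held 217, 288 and 183 normalized counts at stage 49 and 392, 505 and 568 at stage 59. Line 5.8 held 156, 42.4 and 158 at stage 49 and 251, 194 and 226 at stage 59, and line 17_10 held 123, 140.2 and 153 followed by 250.2, 281 and 302. The low value of 42.4 again came from replicate 2 of line 5.8, the library that deviated most from its group over all tested features. MLOC_54160 ran from 28.7 to 47.3 in the lines and from 54.4 to 78.4 in the control at stage 49, and from 25.9 to 60.4 and from 69.2 to 84.9 at stage 59. MLOC_38258 ran from 362 to 655 in the 12 line libraries and from 771 to 961 in the 6 control libraries, the lowest control value being 1.18-fold the highest line value at stage 59.

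**Figure D2:**
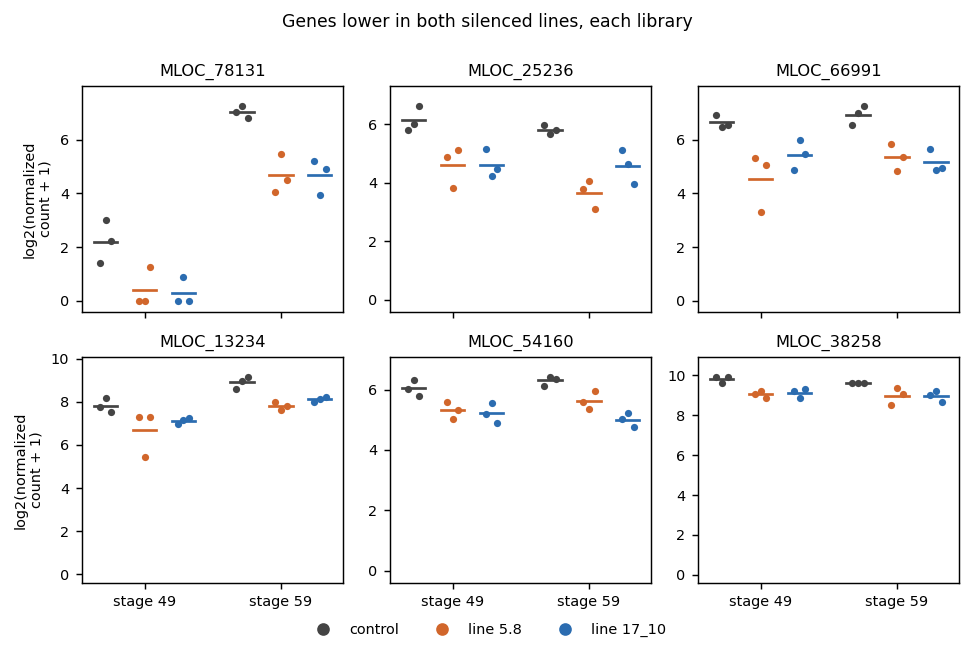
Values of the 6 genes that were lower in both silenced lines, 1 panel per gene, as log2(normalized count + 1) on the vertical axis, with stage on the horizontal axis. Points are single libraries (3 per group) and short lines are group means; MLOC_78131 lies higher at stage 59 than at stage 49 in all 3 genotypes.

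Over the 14 higher genes, the median difference from the control at stage 49 was 2.42 on the log2 scale for line 5.8 and 2.6 for line 17_10, and at stage 59 it was 2.78 and 2.59. Over the 6 lower genes it was -1.33 and -1.01 at stage 49, and -1.35 and -1.28 at stage 59. The medians over all 19857 features lay between -0.01 and 0.01. Control libraries at 0 reads entered the medians of the higher genes, with 6 values in 3 genes at stage 49 and 9 values in 4 genes at stage 59. With each of them set to the floor of 3 reads, these medians stayed at 2.42 and 2.6 at stage 49. At stage 59 they fell to 2.5 and 2.39. The rule fixed the direction and the least size of these differences, and both lines were set against the same control libraries.

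Size varied more between genes than between stages. The size of the difference was larger at stage 59 in 6 of the 14 higher genes and smaller in 8, with a median change of -0.03 on the log2 scale. MLOC_58639 had a change of -4.72, or -3.11 without replicate 2 of the control at stage 49, which was at 0. No size is given for MLOC_36262 (larger at stage 59) and MLOC_54756 (smaller), since their control was at 0 reads at 1 or both stages. In the lower genes the difference was larger at stage 59 in 5 of 6 on the log2(normalized count + 1) scale, with a median change of 0.11. MLOC_78131 is among these, but its lines held 2 (line 5.8) and 1 (line 17_10) reads at stage 49, so the pseudocount shapes that size. Its ratio of control to line went the other way, from 8.79 and 14.6 at stage 49 to 4.89 and 4.97 at stage 59. Between the lines, line 17_10 was above line 5.8 in 8 of 14 higher genes at each stage, with a median difference of 0.04 at stage 49 and 0.01 at stage 59. Whether the difference from the control changed between stages was not tested, since it is built from the comparisons that chose the genes.

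**Figure D3:**
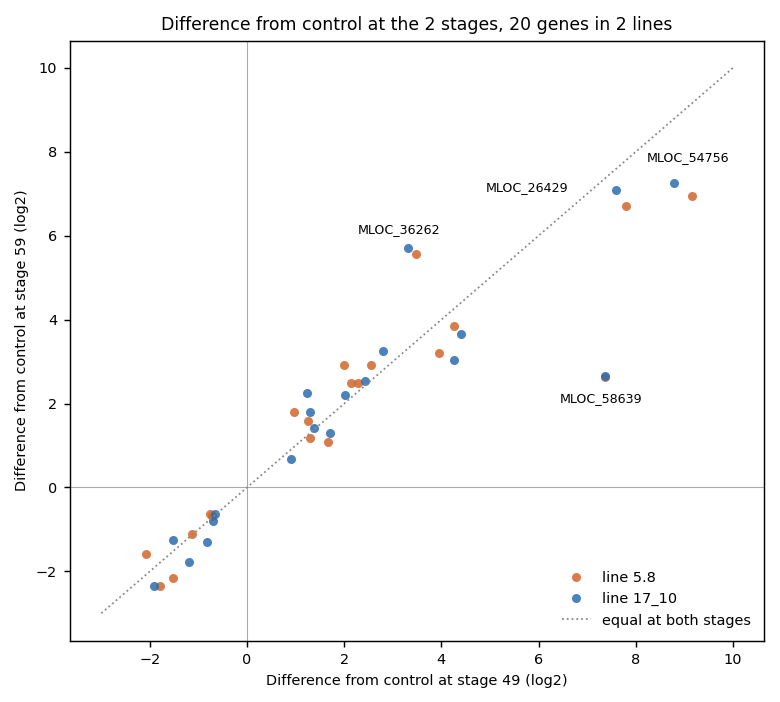
Difference of each line from the control in mean log2(normalized count + 1) at stage 49 (horizontal axis) and at stage 59 (vertical axis), for the 20 genes, with 1 point per gene and line. The dotted line marks equal differences at both stages; MLOC_58639 lies below it, at 7.37 and 2.65 for the mean of the lines. MLOC_54756 (both stages) and MLOC_36262 (stage 59) are set against a control at 0 reads, so that the pseudocount of 1 fixes their place. It also shapes that of MLOC_78131 at stage 49, where the lines held 2 (line 5.8) and 1 (line 17_10) reads.

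Each part of the rule was met by far more features than the whole. Line 5.8 alone had 2.95% of the 19857 features above the control at stage 49 by the same criteria of no overlap and a 1.5-fold difference, and 4.01% at stage 59. For line 17_10 these shares were 1.07% and 1.31%. Features below the control made up 1.89% and 3.7% in line 5.8, and 0.76% and 5.1% in line 17_10. Both lines lay above the control in 76 features at stage 49 (0.383%) and in 114 at stage 59 (0.574%), and below it in 32 (0.161%) and 233 (1.17%). The full rule left 14 higher genes (0.0705%) and 6 lower genes (0.0302%). With the directions required to be opposite at the stages, 1 feature met the other criteria (higher at stage 49 and lower at stage 59, 0.00504%), and 0 met them the other way round.

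Near the thresholds, MLOC_38258 and MLOC_54160 were the lower genes with the smallest of their 4 differences just inside the 1.5-fold threshold, at log2 values of 0.63 and 0.68, and MLOC_15115 and MLOC_80686 the higher genes, at 0.69 and 0.96. Just outside it lay MLOC_51081 and MLOC_68291 among lower features, at 0.53 and 0.26, and MLOC_21519 and MLOC_50488 among higher features, at 0.42 and 0.38. A difference in size between the lines kept out 5 higher and 2 lower features that met all other criteria. Of these, MLOC_53680 lay 8.89 (line 5.8) and 8.02 (line 17_10) above the control on the log2 scale at stage 49, and 7.75 and 6.48 above it at stage 59, sizes that depend on the pseudocount because the control mean was only 0.996 and 5.22 normalized counts. MLOC_60700, with a control mean of 0.954 at stage 49, was 7.77 and 8.16 above it at that stage, and 5.59 and 6.75 at stage 59. Overlap of at least 1 line library with the control kept out 33 higher and 42 lower features that met the rest.

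**Figure D4:**
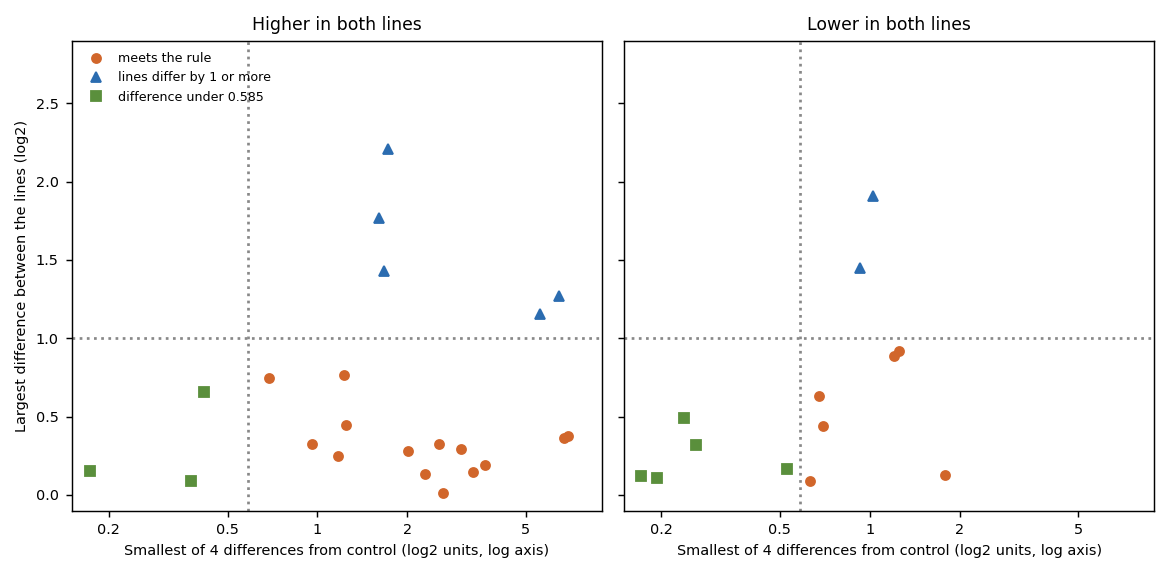
The 22 higher (left) and 13 lower (right) features in which all line libraries lay outside the control at both stages and that missed at most 1 other threshold, by the smallest of their 4 differences from the control (horizontal log axis, log2 units) and the largest difference between the lines at a stage (vertical axis, log2). Dotted lines mark the thresholds (1.5-fold and a log2 difference of 1); circles are the 14 and 6 genes described here, triangles and squares the features that miss 1 of the thresholds.

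The comparison of stage 59 with stage 49 within a genotype was not used to choose the genes, and asks whether they moved over heading. Changes are given on the log2(normalized count + 1) scale, with a moderated SE and a p-value from limma adjusted by the Benjamini-Hochberg method over 20874 tested features, and an adjusted p below 0.05 was called a change. All 20 genes passed the filter of 10 normalized counts in 3 of 18 libraries. In the control 6 of them changed (30%), 3 higher and 3 lower at stage 59, against 45% of all tested features (22.1% higher, 22.9% lower). In line 5.8 there were 4 (20%), 2 higher and 2 lower, against 50.5% (24.2% higher, 26.3% lower), and in line 17_10 there were 4 (20%), 2 higher and 2 lower, against 45.3% (21.5% higher, 23.8% lower). In the control, 7 of the 20 genes passed that filter through the lines alone, and MLOC_54756 at 0 reads could not change there. Among the 13 genes with 10 normalized counts in at least 3 of 6 control libraries, a limit added after seeing the data, 5 changed in the control (38.5%), against 45.6% of 19965 features under the same limit. All 20 genes met the limit in each line, where the shares of features that changed under it were 51.2% (line 5.8) and 45.8% (line 17_10). In all, 13 of the 20 genes passed the threshold in no genotype. The share of all tested features that did so was not worked out, so this count is not read as a trait of the set. The 14 higher genes had a median level of 128 normalized counts and the 6 lower ones 56.1, against 809 over all tested features, and the part of level in these shares was not tested.

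MLOC_29327, MLOC_78131 and MLOC_13234 changed over heading in all 3 genotypes. MLOC_29327 fell in each, with changes of -4.09 for the control, -3.17 for line 5.8 and -3.09 for line 17_10 (SE 0.61 each; limma adjusted p = 7.5e-05, 0.00054 and 0.00078). MLOC_78131 rose by 4.82, 4.24 and 4.38 in the same order (SE 0.55 each; limma adjusted p = 7.8e-06, 2.1e-05 and 1.9e-05). In both genes no library of a stage overlapped the other stage within any genotype. For MLOC_78131 the sizes depend on the few reads at stage 49. Over the other pseudocounts, edgeR and DESeq2 they spanned 3.93 to 5.03 for the control, 2.45 to 5.49 for line 5.8 and 2.5 to 6.27 for line 17_10. A gene higher in the lines thus fell, and a gene lower in the lines rose, in lines and control alike. MLOC_13234 rose by 1.1, 1.12 and 0.99 (SE 0.38 each; limma adjusted p = 0.029, 0.023 and 0.045). Its calls depended on which libraries entered the fit. In the control, leaving out replicate 1 or 3 of stage 49, or 2 or 3 of stage 59, gave an adjusted p of 0.07 to 0.094. Without replicate 2 of line 5.8 at stage 49 the change in line 5.8 was 0.5 (adjusted p = 0.08), and without replicate 1 or 3 of stage 59 the adjusted p was 0.062 or 0.054. In line 17_10 leaving out any of that line's own 6 libraries gave an adjusted p of 0.071 to 0.12. The call in line 17_10 also ended with the replicate number as a block (adjusted p = 0.054). Without replicate 2 of line 5.8 at stage 49, which enters the shared SE, the limma adjusted p was 0.0004 in the control and 0.00087 in line 17_10. In limma fits of each genotype's own groups alone the adjusted p was 0.01 (control), 0.17 (line 5.8) and 0.0038 (line 17_10).

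MLOC_54756 fell from stage 49 to stage 59 in both lines, with a change of -2.22 in line 5.8 (SE 0.36, limma adjusted p = 0.00014) and of -1.53 in line 17_10 (SE 0.36, limma adjusted p = 0.0031). In the control it had 0 reads at both stages, so no change could be measured there.

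In the control alone, MLOC_58639 rose by 4.81 (SE 0.9, limma adjusted p = 0.00054), MLOC_36262 fell from 23 reads to 0 (limma adjusted p = 0.0014) and MLOC_80686 fell by 1.13 (SE 0.34, limma adjusted p = 0.013). MLOC_58639 changed by 0.09 (SE 0.9) in each line, MLOC_36262 by -0.53 and -0.25 (SE 0.56), and MLOC_80686 by -0.3 and -0.62 (SE 0.34), none of which passed the threshold in line 5.8 or line 17_10. For MLOC_58639 the size rested on the control library at 0. It was 3.2 without replicate 2 of stage 49, 6.03 without replicate 3, 3.75 with edgeR and 3.68 with DESeq2. MLOC_36262 passed the filter through the lines alone, and its size is set by the pseudocount, from -1.13 with a pseudocount of 5 to -3.45 with 0.5. A difference of the stage change between genotypes is not shown by this, and was not tested. For MLOC_80686 the call in the control ended without replicate 3 of stage 49 (adjusted p = 0.056) or of stage 59 (adjusted p = 0.069).

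The 13 other genes had no stage change past the threshold with all libraries. Without replicate 2 of line 5.8 at stage 49, MLOC_25236 fell in line 5.8 (change of -1.36, limma adjusted p = 0.02). In the control, MLOC_53891 passed without replicate 1 of stage 49 (adjusted p = 0.038), MLOC 17138 without replicate 3 of stage 59 (adjusted p = 0.042) and MLOC_26429 without replicate 2 of stage 59 (adjusted p = 0.0014). MLOC_46025 passed in line 17_10 without replicate 2 of stage 59 (adjusted p = 0.029). The narrowest estimate among them was that of MLOC_26807, with 0.15 for the control, 0.03 for line 5.8 and 0.2 for line 17_10 (SE 0.14 each). MLOC_38258 stood at -0.19, -0.06 and -0.17 (SE 0.2). MLOC_26429 came nearest to the threshold in the control, at 1.09 (SE 0.45, limma adjusted p = 0.063), and was called there by both edgeR and DESeq2 on recovered reads. It passed the filter through the lines alone, however. Its control held 7 reads at stage 49 and 22 at stage 59, of which 15 were in replicate 3 and 1 in replicate 2. In line 17_10 MLOC_26429 was called by DESeq2 and by limma on that line's groups alone.

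**Figure D5:**
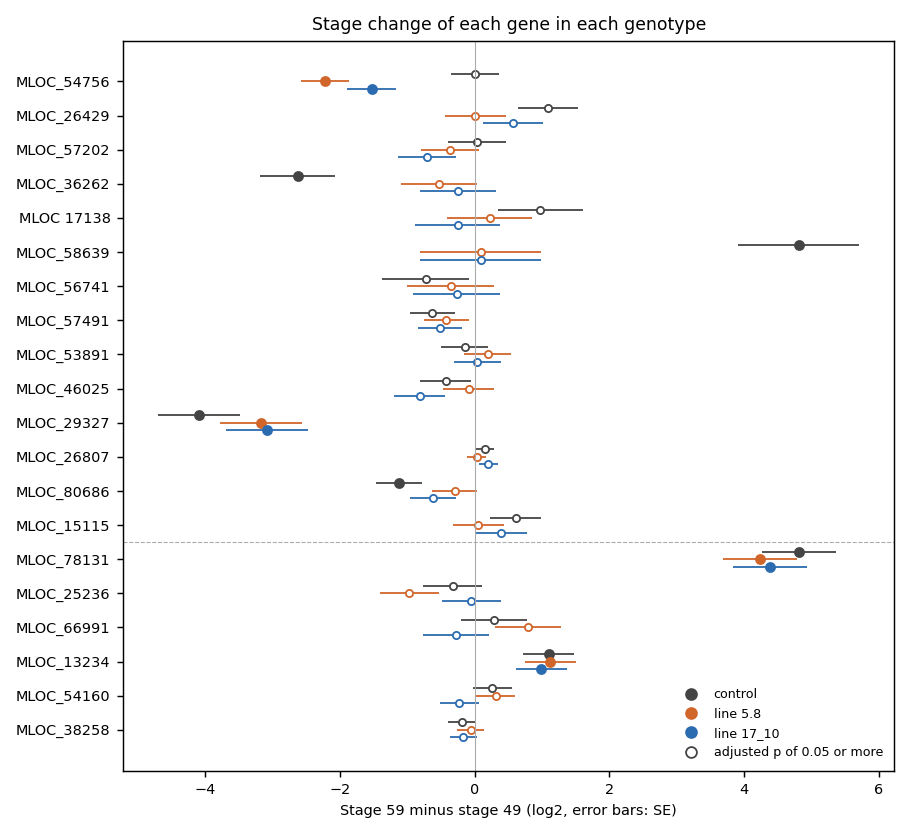
Change from stage 49 to stage 59 (log2, horizontal axis) of the 20 genes in the control and in each line, with bars for the moderated SE. Filled points have a limma adjusted p below 0.05 (6 in the control, 4 in each line) and open points do not; the dashed line parts the 14 higher genes from the 6 lower ones.

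How far the choice of genes rested on single libraries was described by applying the rule without each of the 18 libraries in turn. Between 18 and 31 features then met it. Of the 14 higher genes, 12 met it in every case, all except MLOC_29327 and MLOC_15115. Of the 6 lower genes, MLOC_78131 alone did, but its separation at stage 49 rested on few reads. The nearest values were 1.65 normalized counts (3 reads) in replicate 1 of the control and 1.4 (2 reads) in replicate 3 of line 5.8. The highest number, 31, came without replicate 2 of the control at stage 49, with 21 higher and 10 lower features, including 19 of the 20 genes. Without replicate 2 of line 5.8 at stage 49, 16 higher and 5 lower features met the rule, and MLOC_13234 and MLOC_54160 no longer did. Leaving out a library also removes a value that must not overlap, which makes that criterion easier to meet.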

How the data were processed

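The authors deposited 1 table of gene signal, counts normalized by DESeq going by the table's name in the labels, with 1 column per library (18 in all). STAR 2.4.2a, Subread 1.5.2 and DESeq2 are listed in the submitters' processing notes, with no role or order. Genome build, annotation, strand setting and the treatment of reads with several alignments are not stated in the labels, so reads of near-identical or overlapping genes could be split or lost. Each value was divided by the lowest value above 0 in its library. The results were whole for 100% of values, to within 0.001 reads, and were used as recovered reads. Counting intervals and floors cover counting error only, and of the lower group alone. The mean of the higher group was taken as exact.

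The genes and comparisons were chosen with earlier results of these data known. All 18 libraries entered 1 limma fit (limma 3.58.1, R 4.3.3) of 6 group means on log2(normalized count + 1), with the prior variance following the mean level, two-sided, for features with at least 10 normalized counts in at least 3 libraries. The fit was first run on counts simulated with the same dispersion for all features and with few changed features. These data differ in both, so that run is not used as support here. The rule for named genes took those with the largest smallest difference, the highest level, the largest stage changes in the control and the values nearest the threshold. Since there were only 20 genes, all are described, and the features kept out by the limit between the lines were named after their values were seen. Alternatives were other pseudocounts, filters, scalings (TMM) and fits, edgeR 4.0.16 and DESeq2 1.42.0 on recovered reads, and leaving out each library.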

Additional observations from a re-analysis of the deposited data

How the results depend on the processing

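Counts of genes with a stage change stayed within 1.5 times the reported 6, 4 and 4 (control, line 5.8, line 17_10) under all alternatives run. Leaving out single libraries gave 4 to 6 in the control, 3 to 4 in line 5.8 and 3 to 4 in line 17_10. With the replicate number as a block, they were 6, 4 and 3; same-numbered libraries of the 2 stages did not deviate together (correlations of -0.2 to 0.17), so the numbers were not taken to pair them. DESeq2 gave 7, 4 and 5, and edgeR 7, 4 and 4, on recovered reads. Limited to genes with 10 normalized counts in 3 libraries of the genotype, added after seeing the data, the counts were 5 of 13, 4 of 20 and 4 of 20. The share of all fitted features that changed, against which these counts are read, moved as well. For the control it spanned 37.2% to 50.7% (main fit 45%). Line 5.8 spanned 32.3% to 53.7% (main fit 50.5%), and line 17_10 spanned 37% to 52.6% (main fit 45.3%). The lowest share for line 5.8 came with that line's groups fitted alone, where 3 of the 20 genes changed. The 20 genes and all features thus lay closer together there. Calls gained under an alternative numbered 9, in 5 genes. The 14 single stage changes that passed missed the threshold in 24 of 364 alternatives, 22 for MLOC_13234 and 2 for MLOC_80686. None reversed direction, but in many of the alternatives the size of a change could not move. Leaving out a library of another genotype, dropping the filter, blocking by replicate number or fitting the groups alone leaves it unchanged.

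The number of features that met the rule was 20, and 18 to 31 when single libraries were left out. It was 17 with a minimum of 50 counts, 22 with a minimum of 10, 15 with a difference of at least 1, 15 with lines within 1.5-fold, 27 with no limit between the lines and 21 with TMM scaling. The median difference of the higher genes from the control (mean of both lines) was 2.51 at stage 49 and 2.61 at stage 59. With a pseudocount of 5, which lifts low control values most, it was 2.01 and 1.99. In the lower genes it was -1.22 and -1.34, and with a pseudocount of 5 it was -0.81 and -1.22. Without single libraries it ran from 2.29 to 2.89 at stage 49 and from 2.41 to 2.96 at stage 59, and in the lower genes from -1.36 to -1.04 and from -1.4 to -1.24.

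Depth limits the genes at 0 or a few reads in a group to bounds or wide intervals, most of all MLOC_54756, MLOC_57202, MLOC_36262 and MLOC_78131. For MLOC_26429 the control rested on 7 reads at stage 49. At stage 59 it rested on 11 for MLOC_56741, 18 for MLOC_57491, 19 for MLOC_46025 and 22 for MLOC_29327.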

Other observations

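The feature that met the same criteria with opposite directions was MLOC_38447, named because it was the only 1. Its control libraries held 519, 609 and 421 normalized counts at stage 49 and 239, 232 and 169 at stage 59. Line 5.8 held 954, 1720 and 743 at stage 49 and 107, 161 and 95.6 at stage 59, and line 17_10 held 882, 666 and 773 followed by 132, 154 and 122. All 6 line values were above the control at stage 49 and below it at stage 59. The highest value, 1720, came from replicate 2 of line 5.8. Among features with EPlHVUG identifiers, 0 met the rule in either direction.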
